A study of Mus musculus with 4 samples.

Results

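The 10 genes described here, Grhl1, Grhl2, Grhl3, Trp63, Zfp750, Ovol1, Klf4, Prdm1, Foxn1 and Mxd1, encode transcription factors of epidermal differentiation. They were taken by gene symbol from a table of 25814 genes, each symbol matched 1 gene, and all 10 passed the filter on low counts. RNA was sequenced from cultured keratinocytes, the epithelial cells of the epidermis, of adult 129/sv mouse tail skin. There were 2 libraries from wild-type (WT) mice and 2 from mice labelled Nfat5-/- for the gene of the osmotic stress factor NFAT5. The comparison asks how loss of NFAT5 bears on the RNA of differentiation factors. The WT mice were littermates. All cultures were kept untreated in serum-free medium with low calcium, so neither group received a calcium switch or an osmotic stimulus in culture. The study describes 129/sv mice as having kidney atrophy and permanent hypernatremia (high blood sodium), and gives no values by genotype. Tails of both groups were shipped overnight on ice before culture. The number of cultures behind each library, the exact age of the mice and the days in culture are not given in the sources used here.

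Keratinocytes divide in the basal layer, leave it, and build the cornified envelope while they move outwards. Trp63 keeps the basal state and the epidermal lineage. Grainyhead-like factors, Zfp750, Ovol1, Klf4 and Prdm1 act in the exit from it and in barrier formation. Foxn1, the gene mutated in nude mice, acts as keratinocytes begin to differentiate, and Mxd1 pairs with MAX and opposes MYC, a driver of proliferation.

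Between 16219445 and 23494436 reads were assigned to genes per library, and 15825 to 16330 genes had at least 1 read. Levels are given as RPKM, read density per exon length scaled to the mapped reads of the library, which allows genes to be compared. Differences are log2 fold changes of Nfat5-/- over WT with their standard error (SE), from edgeR's quasi-likelihood test on read counts, with p-values adjusted by Benjamini-Hochberg over 12614 tested genes and a threshold of 0.05. Nfat5 itself was at 1.67 and 3.002 RPKM in WT, against 2.02 and 2.78 RPKM under the Nfat5-/- label. The groups overlapped (log2 fold change 0.09, SE 0.26, adjusted p = 0.913), so gene-level Nfat5 RNA did not separate the labels, and every direction below rests on the labels. NFAT5 protein was not analysed here. The keratinocyte label was met by Krt5 at 4990 to 5775 RPKM and Krt14 at 5148 to 6985 RPKM, the keratin pair of basal cells. In these bulk samples, a different share of differentiating cells and a different RNA level per cell cannot be told apart.

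Of the 10 genes, 3 rose in the libraries labelled Nfat5-/- (Foxn1, Mxd1 and Grhl3) and 0 fell, while 1.27% of all tested genes were called, 0.943% higher and 0.325% lower. The median log2 fold change over the 10 genes was 0.61, against -0.01 over all genes tested. In 7 of the 10 both Nfat5-/- libraries lay above both WT libraries in depth-scaled counts (CPM), a pattern that 23.3% of tested genes showed. The reverse order was seen in 0 of the 10 and in 24.5% of tested genes, so groups of 2 libraries were apart in 47.8% of all genes. Foxn1, Mxd1, Grhl3 and Zfp750 are 4 genes that the study had singled out from these same libraries, so their direction is not independent evidence. Among those 4, 3 were called and the median was 1.30, and among the other 6, 0 were called by edgeR, 1 of them (Grhl1) among the 5 members with an unadjusted p under 0.05, and the median was 0.12. DESeq2 also called Grhl1 (adjusted p = 0.00828) and Zfp750 (adjusted p = 8.1e-04), with 3.38% of genes called. The same 5 members were called without a filter on low counts, where 6.3% of genes were, 4 at an adjusted p under 0.1 (2.89% of genes), and 1, Grhl3, with a replicate block (1.05% of genes). Leaving out 1 library left a single library in that group, which was then assumed to vary like the other group. Without Nfat5-/- replicate 1 or replicate 2, 0 members were called by edgeR (0.24% and 0.122% of genes), and 5 had an unadjusted p under 0.05 in each case (13.8% and 7.48% of genes), as with all libraries (14.6% of genes). Without WT replicate 1 the count was 5 (2.05% of genes), and without WT replicate 2 it was 3 (3.7% of genes).

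**Figure D1:**
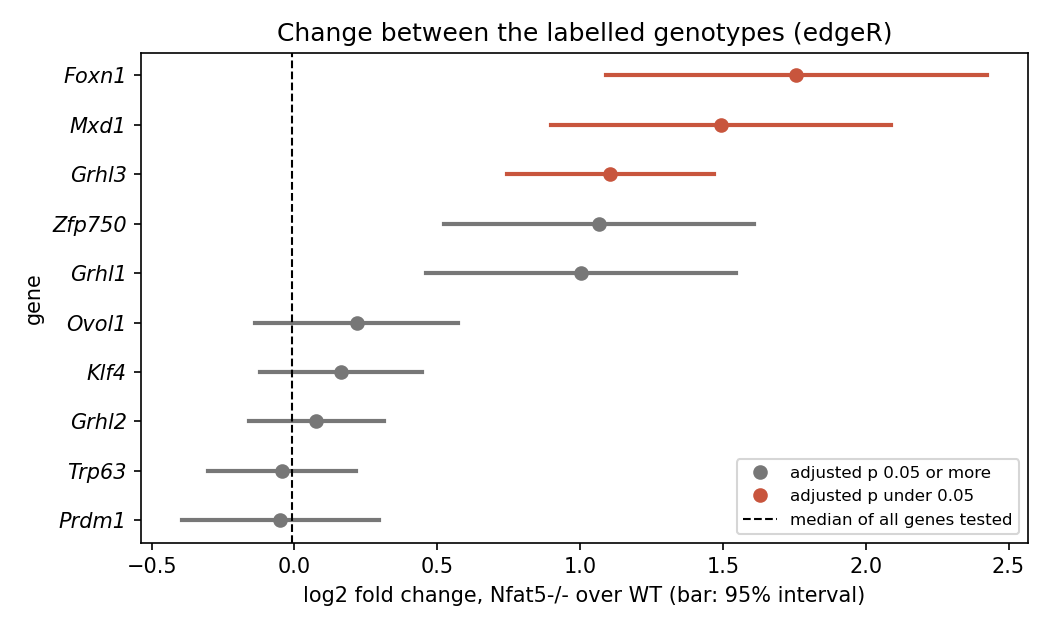
Log2 fold change (Nfat5-/- over WT, x axis) of each gene with its 95% interval, edgeR, 2 libraries per group. Foxn1, Mxd1 and Grhl3, in red, have an adjusted p under 0.05, the intervals of Zfp750 and Grhl1 also lie above 0, and the dashed line is the median of all genes tested at -0.01.

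The 10 genes spanned a wide range of levels in WT. Klf4 was highest at 33.0 ± 3.93 RPKM (SD, n = 2), then Trp63 at 18.5 ± 2.03 RPKM, and Foxn1 was lowest at 1.10 ± 0.527 RPKM. Between these lay Grhl2, Zfp750, Ovol1, Prdm1, Grhl1, Grhl3 and Mxd1. Neighbours whose library ranges overlapped, and whose order is therefore not resolved, were Grhl2 with Zfp750, the run from Ovol1 through Prdm1 and Grhl1 to Grhl3, and Mxd1 with Foxn1. In the libraries labelled Nfat5-/-, Klf4 again stood above all others at 36.5 ± 1.65 RPKM, the ranges of Zfp750 and Trp63 overlapped, and Prdm1, Mxd1 and Foxn1 formed an unresolved group at the bottom.

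**Figure D2:**
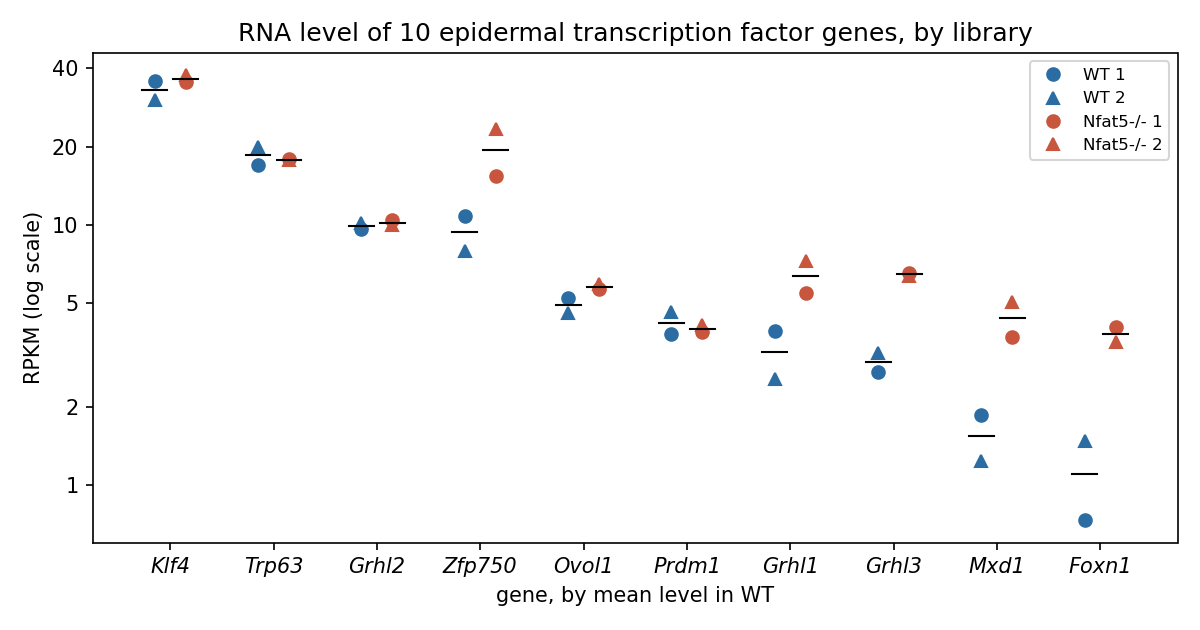
RPKM on a log axis for the 10 genes, ordered by their mean in WT, with 1 point per library and a line at each group mean. Foxn1, Mxd1, Grhl3, Grhl1, Zfp750 and, by a small gap, Ovol1 have both Nfat5-/- points above both WT points, while Klf4, Trp63, Grhl2 and Prdm1 have overlapping points.

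Grhl3, Foxn1 and Mxd1, the genes called by the test, are shown with the 250 bases before their annotated start (RefSeq, GRCm38.p6, all on the minus strand, 5′ to 3′ in the direction of transcription), so that the reader can see the sequence next to which the RNA difference was measured. Capitals mark CACCC, a core that Krüppel-like factors such as KLF4 are known to bind. The windows are chr4:135573633-135573882, chr11:78386609-78386858 and chr6:86669160-86669409. They are placed by the RefSeq start, which can differ from the gene spans given below.
Grhl3: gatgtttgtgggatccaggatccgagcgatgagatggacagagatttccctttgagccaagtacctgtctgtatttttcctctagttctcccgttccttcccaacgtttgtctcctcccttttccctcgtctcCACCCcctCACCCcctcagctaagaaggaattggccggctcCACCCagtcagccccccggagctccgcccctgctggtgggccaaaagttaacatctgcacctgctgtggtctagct
Foxn1: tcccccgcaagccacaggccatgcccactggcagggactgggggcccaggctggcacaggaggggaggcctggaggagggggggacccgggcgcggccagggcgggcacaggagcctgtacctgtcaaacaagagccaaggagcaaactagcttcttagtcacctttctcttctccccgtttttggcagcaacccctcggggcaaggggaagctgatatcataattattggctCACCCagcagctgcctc
Mxd1: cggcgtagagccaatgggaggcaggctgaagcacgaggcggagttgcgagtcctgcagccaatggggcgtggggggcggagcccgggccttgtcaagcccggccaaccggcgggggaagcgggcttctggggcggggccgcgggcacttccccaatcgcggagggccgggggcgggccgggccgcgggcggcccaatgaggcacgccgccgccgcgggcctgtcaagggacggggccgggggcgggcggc
The table used here held 7 promoters of 6 of the 10 genes and none for Zfp750, Trp63, Ovol1 or Grhl2. Over the whole 300-base promoters and both strands, CACCC was present in 3 of the 7 (Grhl3 at 3 places, Foxn1 and the second Grhl1 promoter), against 57.5% of 32851 promoters. The NFAT core TGGAAA was in 0 of 7, against 21.4% of all promoters, and the grainyhead motif AACCGGTT in 0 of 7, against 0.146%. The E-box CACGTG, bound by MYC, MAX and MXD1 dimers, was in 1 of 7, the Klf4 promoter, against 7.15%. These are letter matches in a short window, and no binding was measured.

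The grainyhead-like genes differed among themselves. Grhl3 (chr4:135541888-135573630), needed for the skin barrier and wound closure, was at 2.72 and 3.22 RPKM in WT, against 6.52 and 6.37 RPKM under the Nfat5-/- label. The groups did not overlap, and the gap between them was far wider than the gap within either. Grhl3 rose by a log2 fold change of 1.11 (SE 0.15, 95% interval 0.74 to 1.47, adjusted p = 0.0252). Without Nfat5-/- replicate 1 or replicate 2 the log2 fold change was 1.11 in each case, with adjusted p of 0.126 and 0.184, and without either WT library the adjusted p was 0.0279 or 0.0105.

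Grhl1 (chr12:24572283-24617391), a regulator of desmosomal cadherins, was at 3.91 and 2.55 RPKM in WT, against 5.46 and 7.28 RPKM under the Nfat5-/- label. The groups did not overlap, but each was spread more widely than for Grhl3. Its log2 fold change of 1.005 (SE 0.23, 95% interval 0.46 to 1.55) did not pass the threshold (adjusted p = 0.102). Without WT replicate 1, the WT library with more Grhl1, the log2 fold change was 1.31 and the adjusted p 0.0212, with WT replicate 2 alone in its group. Without WT replicate 2, Nfat5-/- replicate 1 or Nfat5-/- replicate 2 the adjusted p was 0.114, 0.141 or 0.564, and without the last the log2 fold change was 0.76. Grhl2 (chr15:37233036-37363569), which maintains epithelial junctions, was at 9.63 and 10.2 RPKM in WT, against 10.4 and 9.97 RPKM under the Nfat5-/- label. These RPKM levels overlapped, although in CPM of all gene reads the Nfat5-/- libraries (58.8 and 58.97) lay just above the WT libraries (54.7 and 57.0), so Grhl2 is among the 7 genes counted as apart. The 95% interval of its log2 fold change ran from -0.16 to 0.31 (adjusted p = 0.782).

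The summed RPKM of the family was 16.3 and 16.0 in WT, against 22.4 and 23.6 under the Nfat5-/- label. Grhl2 made up 59.2% and 63.8% of that sum in WT, against 46.5% and 42.2% under the Nfat5-/- label, while Grhl3 made up 16.7% and 20.2% against 29.1% and 27.0%. The ratio of Grhl3 to Grhl2 was 0.282 and 0.317 in WT, against 0.625 and 0.638 under the Nfat5-/- label. An exact two-sided permutation test gave p = 0.333, the smallest that 2 libraries against 2 allow. The related CP2 genes Ubp1, Tfcp2 and Tfcp2l1 were all tested and 0 of 3 were called in either direction by edgeR or DESeq2 and 0 had an unadjusted p under 0.05, with a median log2 fold change of 0.05 and adjusted p from 0.732 to 0.925. In a list of 12 known grainyhead targets, with a median log2 fold change of 0.18, 1 rose, the desmosomal cadherin Dsg1a, at 0.148 and 0.103 RPKM in WT, against 0.489 and 0.755 RPKM under the Nfat5-/- label (log2 fold change 2.34, SE 0.39, adjusted p = 0.0416). Its exon reads were 71.6% uniquely placed, and Dsg1b is a close paralog, so the split between them is uncertain. With limma on log2(RPKM + 1) or log2(RPKM + 0.1), 0 of the 11 list genes kept there were called. Of the 12 targets, 5 had an unadjusted p under 0.05, DESeq2 called 2, and leaving out 1 library gave 0 to 3 calls. The tight-junction gene Cldn4, the most abundant of the list, was at 728 and 887 RPKM in WT, against 809 and 825 RPKM under the Nfat5-/- label, so the groups overlapped.

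**Figure D3:**
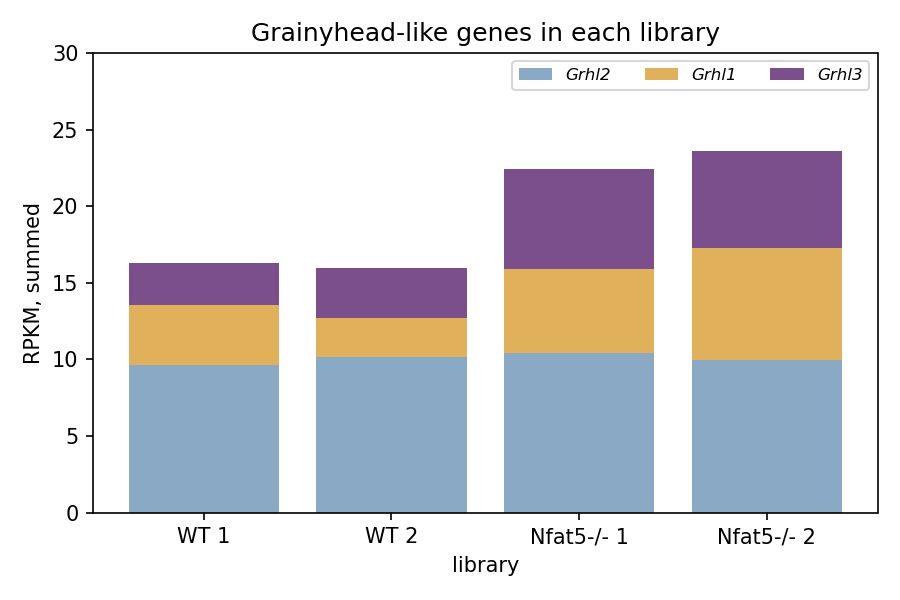
RPKM of Grhl2, Grhl1 and Grhl3 stacked for each of the 4 libraries, on an axis that starts at 0. The Grhl2 block is alike in height across libraries at 9.63 to 10.4 RPKM, and the Grhl1 and Grhl3 blocks are taller in both libraries labelled Nfat5-/-.

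Foxn1 (chr11:78357577-78386558) was at 0.730 and 1.48 RPKM in WT, against 4.04 and 3.54 RPKM under the Nfat5-/- label. Both WT libraries lay below both others. Foxn1 rose by a log2 fold change of 1.76 (SE 0.28, 95% interval 1.09 to 2.43, adjusted p = 0.0398). It rested on 42 and 107 reads in WT, against 321 and 222 under the Nfat5-/- label, the fewest WT reads among the 10 genes, and reads across an exon junction numbered 5, 13, 54 and 37 in the same order. Relative to Trp63, Foxn1 was at 0.0428 and 0.0740 in WT, against at 0.226 and 0.199 under the Nfat5-/- label. Without Nfat5-/- replicate 1 its log2 fold change was 1.68 (adjusted p = 0.163), without replicate 2 it was 1.84 (adjusted p = 0.213), and without WT replicate 1 or 2 it was 1.40 or 2.32. On log2(RPKM + 0.1) with limma the adjusted p of Foxn1 was 0.0514.

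Mxd1 (chr6:86647042-86669161) was at 1.85 and 1.23 RPKM in WT, against 3.69 and 5.05 RPKM under the Nfat5-/- label. The groups did not overlap. It rose by a log2 fold change of 1.49 (SE 0.25, 95% interval 0.90 to 2.09, adjusted p = 0.0450), and the adjusted p was 0.0998 without Nfat5-/- replicate 1 and 0.291 without replicate 2. Of 12 other genes of the MYC, MAX and MXD network, 11 were tested (median log2 fold change 0.12). In either direction 0 were called by edgeR or DESeq2, with 2 at an unadjusted p under 0.05 in edgeR. Without a filter on low counts, edgeR called 1 of the 12, higher, and 6.3% of all genes. Myc, which MXD1 opposes, was at 50.4 and 34.2 RPKM in WT, against 38.2 and 37.3 RPKM under the Nfat5-/- label, with overlapping groups (adjusted p = 0.760). Max, their shared partner, was at 21.3 and 25.0 RPKM in WT, against 26.1 and 27.9 RPKM under the Nfat5-/- label (adjusted p = 0.413). The ratio of Mxd1 to Myc was 0.0368 and 0.0360 in WT, against 0.0966 and 0.136 under the Nfat5-/- label.

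Zfp750 (chr11:121510978-121519333), a zinc finger repressor and activator of late differentiation, was at 10.8 and 7.96 RPKM in WT, against 15.4 and 23.3 RPKM under the Nfat5-/- label. The groups did not overlap, and the Nfat5-/- libraries lay far apart. Its log2 fold change of 1.07 (SE 0.23, 95% interval 0.52 to 1.61) did not pass the threshold (adjusted p = 0.0874), and did so without WT replicate 1 (log2 fold change 1.31, adjusted p = 0.0279), where WT replicate 2 stood alone. Without WT replicate 2, Nfat5-/- replicate 1 or Nfat5-/- replicate 2 the adjusted p was 0.0857, 0.0879 or 0.418, and without the last the log2 fold change was 0.72.

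Most Zfp750 reads were not counted as uniquely placed. Of its exon reads, 3.45% and 2.63% in WT, against 2.84% and 2.43% under the Nfat5-/- label were unique, whereas the share was 100% in 8 of the other genes and 98.8% to 99.7% in Klf4. Among 12465 tested genes with exon reads the median share was 100%, and 373 of them (2.99%) lay under 5%. All 3232 exonic bases of Zfp750 lie inside the span of Tbcd, a tubulin-folding gene on the opposite strand (chr11:121451949-121617164), and 0 of them fall on a Tbcd exon. All unique exon reads of Zfp750, 20 and 15 in WT, against 34 and 35 under the Nfat5-/- label, crossed an exon junction. A fit on unique exon reads gave Zfp750 a log2 fold change of 0.82 (SE 0.40, adjusted p = 0.384), and 1.87% of genes were called in it, Foxn1, Mxd1 and Grhl3 among them.

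Tbcd itself was at 36.9 and 37.6 RPKM in WT, against 35.2 and 38.1 RPKM under the Nfat5-/- label, with overlapping groups (log2 fold change -0.01, adjusted p = 0.990). Raw reads over Zfp750 exons, not scaled to depth, had a density of 179 and 176 per kilobase in WT, against 370 and 445 under the Nfat5-/- label. Raw reads assigned to Tbcd introns had a density of 0.590 to 0.820 per kilobase over the 4 libraries, so within a library Zfp750 exons were covered 215 to 577 times as densely. No source says that strand was used in counting, so reads of the 2 genes in the shared span cannot be separated by strand.

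**Figure D4:**
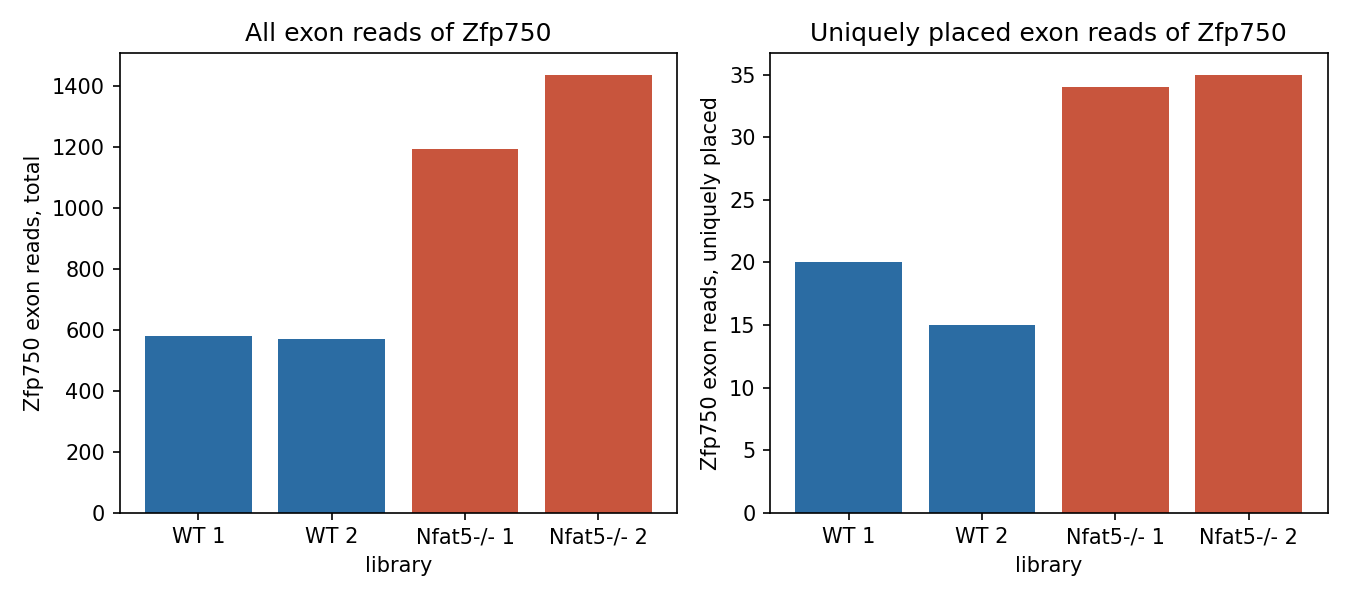
Raw Zfp750 exon reads in each library, not scaled to depth, all reads on the left and uniquely placed reads on the right, with separate axes that start at 0. Both panels are higher in the libraries labelled Nfat5-/-, but the right panel rests on 15 to 35 reads per library.

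Reads that cross an exon junction come from spliced RNA. They are part of the reads behind the calls, so they add no independent evidence. In raw counts, Grhl3 had 48 and 73 junction reads in WT, against 156 and 100 under the Nfat5-/- label, and Mxd1 had 16 and 7, against 46 and 60. In both genes, as in Foxn1, the groups did not overlap in junction reads, also in CPM. The same held in CPM for Grhl1, Zfp750, Ovol1 and Klf4, which were not called. On all gene reads, groups were apart in 47.8% of tested genes, and the share for junction reads was not computed. Intron reads were few, at 5 to 7 for Grhl3, 2 to 8 for Foxn1 and 5 to 10 for Mxd1 per library, too few to compare. Grhl1 had 0.802 and 0.972 intron reads in CPM in WT, against 1.36 and 2.09 under the Nfat5-/- label, on 13 to 39 reads per library. Trp63, on 78 to 109 intron reads per library, went the other way, with 5.49 and 5.04 in WT, against 3.32 and 4.56. Grhl2 overlapped, with 1.85 and 1.39 in WT, against 1.62 and 2.84.

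Trp63 (chr16:25683763-25892102) was at 17.1 and 19.9 RPKM in WT, against 17.9 and 17.7 RPKM under the Nfat5-/- label. The Nfat5-/- libraries lay between the WT libraries. The 95% interval of its log2 fold change ran from -0.30 to 0.21 (adjusted p = 0.894), and gene totals do not resolve the 8 annotated transcripts. Within a list of 16 basal genes, known p63 targets and adhesion genes, 15 were tested, 2 fell and 0 rose, with a median log2 fold change of -0.05. They were the laminin genes Lamb3, at 397 and 429 RPKM in WT, against 190 and 204 RPKM under the Nfat5-/- label (log2 fold change -1.05, adjusted p = 0.0123), and Lama3, at 142 and 172 RPKM against 87.1 and 96.5 RPKM (log2 fold change -0.75, adjusted p = 0.0452). Leaving out 1 library gave 0 to 2 calls in the list.

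Klf4 (chr4:55527143-55532466), a barrier factor, was at 35.8 and 30.2 RPKM in WT, against 35.3 and 37.6 RPKM under the Nfat5-/- label. Prdm1 (chr10:44437177-44528501), which encodes the repressor BLIMP1 of the upper layers, was at 3.80 and 4.62 RPKM in WT, against 3.86 and 4.12 RPKM under the Nfat5-/- label. In both genes the groups overlapped. The 95% interval of the log2 fold change was -0.12 to 0.45 for Klf4 (adjusted p = 0.591) and -0.40 to 0.29 for Prdm1 (adjusted p = 0.913). Ovol1 (chr19:5549137-5560575), which restrains proliferation as cells leave the basal layer, was at 5.25 and 4.56 RPKM in WT, against 5.67 and 5.91 RPKM under the Nfat5-/- label. Its groups did not overlap, but the log2 fold change was 0.22 (SE 0.15, 95% interval -0.14 to 0.57, adjusted p = 0.569). The upper bounds of these intervals lie below the lower bound of the Foxn1 interval, 1.09, and do not show equality. Ovol1 and Grhl2 share exonic bases with antisense or pseudogene transcripts in the annotation (Gm31166, 690 bases, and AC126029.1, 76 bases, with Ovol1, and Gm16136, 169 bases, with Grhl2), so their counts carry that uncertainty.

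Genes of later layers were also compared. Of 31 suprabasal and cornified layer genes, 26 were tested, 9 rose and 0 fell, with a median log2 fold change of 1.15. Among all tested genes, 0.943% were called higher and 0.325% lower. In CPM, both Nfat5-/- libraries lay above both WT libraries in 20 of the 26 and below them in 2. Over all tested genes the shares were 23.3% and 24.5%. In all 4 libraries, 3 of the 31 had 0 reads. The genes named next were picked from those called. Cnfn, a cornified envelope protein, was at 5.19 and 4.84 RPKM in WT, against 20.96 and 21.1 RPKM under the Nfat5-/- label (log2 fold change 2.07, adjusted p = 0.00579). Others that rose were the desmosomal Dsg1b (log2 fold change 2.42), the envelope precursor Sprr1b (log2 fold change 1.90), the long-chain lipid enzyme Elovl4 (log2 fold change 1.12) and Krtdap (log2 fold change 2.53), with adjusted p from 0.0129 to 0.0251. Leaving out 1 library gave 0 to 13 calls in this list, and without WT replicate 2 they were 11 higher and 2 lower. In these same libraries the study had already reported Cnfn, Sprr1b and Krtdap as higher, so their rise is not independent evidence. The study names 10 transcription factor genes picked from these same libraries, the 4 members given above among them, so their counts are no independent evidence. Of these 10, 4 rose and 1 fell, with a median log2 fold change of 1.24, DESeq2 called 9, and leaving out 1 library gave 0 to 10 calls, with 0 without either Nfat5-/- library. The non-members called were Klf10, a TGF-beta inducible factor, at 9.23 and 7.32 RPKM in WT, against 16.0 and 19.4 RPKM under the Nfat5-/- label (log2 fold change 1.12, adjusted p = 0.0265), and Irf9, of the interferon response, at 6.96 and 6.71 RPKM, against 3.12 and 2.49 RPKM (log2 fold change -1.27, adjusted p = 0.0203). Of 40 further epidermal transcription factor genes, a list that leaves out those the study names, 37 were tested and 0 were called in either direction by edgeR or DESeq2, with 8 at an unadjusted p under 0.05 in edgeR, 0 to 3 calls when 1 library was left out, and a median of 0.12. Among 12 relatives of the members, 6 were tested and 0 were called by edgeR or DESeq2, with 1 at an unadjusted p under 0.05. Without a filter on low counts, edgeR called 7 of the 40 further factors, 5 higher and 2 lower, and 1 of 10 relatives, higher. That fit called 6.3% of all genes.

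**Figure D5:**
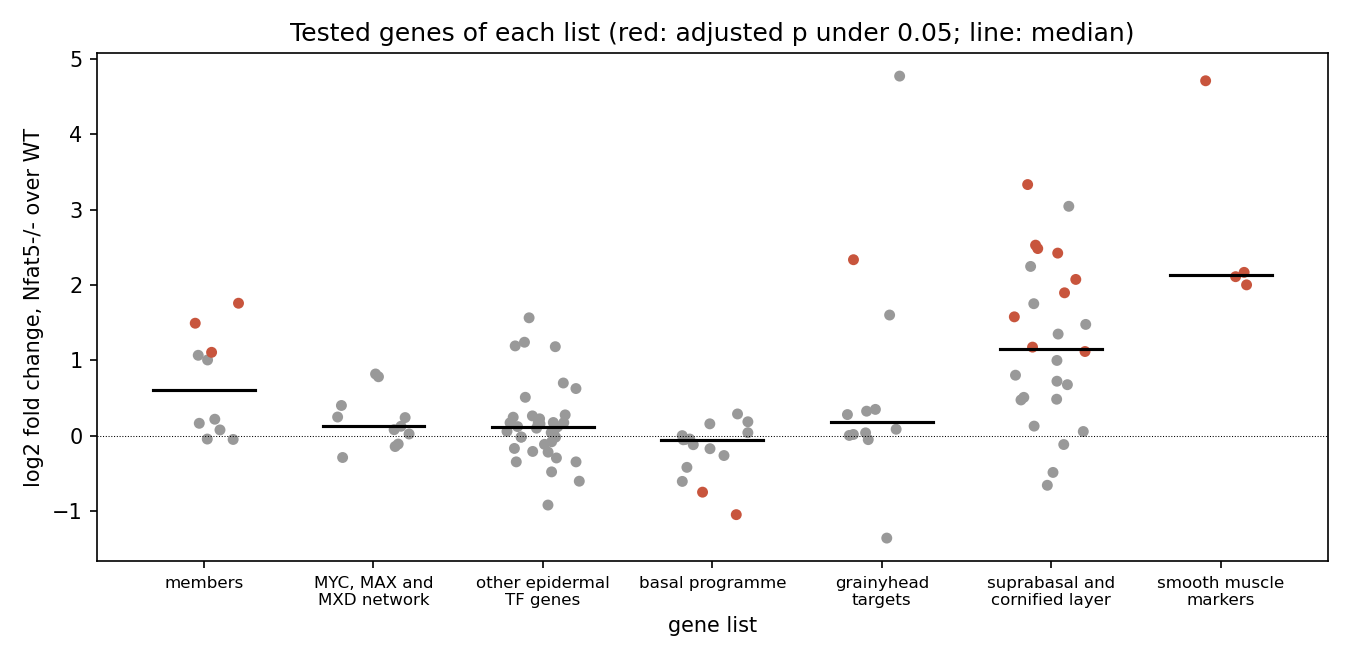
Log2 fold change (Nfat5-/- over WT, y axis) of each tested gene in 7 lists, red where the adjusted p was under 0.05, with a line at each median. The suprabasal list has its median at 1.15 and the smooth muscle markers at 2.14, while the MYC network and the other epidermal transcription factors, a list without the factors that the study names, have medians of 0.12.

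Genes used as markers of other cells also differed between the groups. Of 6 smooth muscle markers, 4 were tested and all 4 rose (2 to 3 when 1 library was left out), and the summed RPKM of the list was 184 and 151 in WT, against 518 and 819 under the Nfat5-/- label. Acta2, smooth muscle actin, carried most of it, at 164 and 134 RPKM in WT, against 450 and 723 RPKM under the Nfat5-/- label. Of 7 melanocyte markers, 5 were tested and 1 fell (Tyrp1, adjusted p = 0.0203, with 0 to 2 calls in the list when 1 library was left out), and the summed RPKM was 7.76 and 7.34 in WT, against 2.31 and 3.26 under the Nfat5-/- label. Whether these RNAs came from other cells or from the keratinocytes was not tested. Any part of such cells in the values of the 10 genes was not tested either. Fibroblast markers summed to 0.434 to 1.15 RPKM over the 4 libraries. Of the other markers, 2 of 7 for fibroblasts, 3 of 6 for leukocytes and Langerhans cells, 2 of 6 for hair follicle and 2 of 4 for endothelium were tested. Of these, 0 were called by edgeR or DESeq2, 0 had an unadjusted p under 0.05, and 3 of 6 hair follicle markers had 0 reads in all libraries.

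By distance between log2 CPM profiles centred on each gene's mean over the 4 libraries, among 144 tested genes of the lists, the nearest to Grhl3 were Elovl4 (0.281), Egr1 (0.333) and Casp14 (0.354), where 0 would be the same profile. For Mxd1 they were Sprr1a (0.144), Hopx (0.188) and Dsg1a (0.366), and for Foxn1 Sox11 (0.516) and Sprr2b (0.559). Zfp750 lay nearest to Grhl1 (0.154), Klf10 (0.250) and Lce1h (0.276). Foxn1 thus had no close match in the lists, and 4 points per gene make these distances a description.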

How the data were processed

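Poly(A) RNA of 4 libraries was sequenced as single reads, and the authors mapped and counted them with CLC Genomics Workbench at default settings on mouse GRCm38. The deposited tables hold raw read counts per gene (total, exon, unique exon, junction and intron reads), not normalised, and RPKM as computed by the authors. The deposited TPM values were not used. Depth was 16219445 to 23494436 gene reads, and a floor of 3 reads equals 0.128 to 0.185 CPM, which covers counting error only. Replicates differed beyond sampling noise (chi-square per degree of freedom 16.7 and 17.3), and p-values measure the spread between these libraries, which may be technical.

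Total gene reads were fitted with edgeR 4.0.16 in R 4.3.3 (TMM, filterByExpr, genotype as the only term), leaving 12614 genes. Scripts were tested on simulated data. Alternatives used DESeq2 1.42.0, limma 3.58.1 on log2(RPKM + 1) or log2(RPKM + 0.1), other read types, scalings and filters, a replicate block and leaving out each library. The members and lists were chosen with earlier results of these data known. Outside the members, Nfat5, genes overlapping a member, and per list up to 5 called genes and the 3 most abundant could be named. Nearest profiles are given for 4 members, called first. Some genes that this rule names are not reported here.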

Additional observations from a re-analysis of the deposited data

How the results depend on the processing

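Of the 10 genes, 3 were called (Foxn1, Grhl3 and Mxd1). The count became 5 without a filter on low counts and 5 with DESeq2, both adding Grhl1 and Zfp750, and 0 with limma on log2(RPKM + 1) without a filter, where 5 members still had an unadjusted p under 0.05. With limma on log2(RPKM + 0.1) it was 2, without Foxn1 (adjusted p = 0.0514). Leaving out 1 library gave 0 to 5. Over all genes, 160 were called, against 1137 without a filter, 426 with DESeq2, 364 at an adjusted p under 0.1, 0 with limma on log2(RPKM + 1) without a filter (1937 at an unadjusted p under 0.05) and 16 to 478 when 1 library was left out. The cause of these differences was not tested. The sign turned for Trp63 without WT replicate 2 and for Prdm1 without WT replicate 2 (0.11) or Nfat5-/- replicate 1 (0.02), neither of them called. When 1 library was left out, the log2 fold change ranged from -0.14 to 0.063 for Trp63 and from -0.18 to 0.11 for Prdm1. The labels share replicate numbers but give no common origin for same-numbered libraries, whose deviations correlated at -0.07 over tested genes and -0.12 over 11899 well-covered genes. With a replicate block, 1 member (Grhl3) and 132 genes were called. With the numbers of the replicate block crossed, a fit added after seeing the data, 5 members and 1142 genes were called. Foxn1 rests on 42 reads in WT replicate 1, so its fold change is the least precise of those called.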
